A study of Homo sapiens with 28 samples.

Results

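The expression of 9 genes that mark the epithelial and mesenchymal states of a carcinoma cell was followed in HCT116 xenograft tumors and in cell cultures explanted from such tumors. The genes were CDH1, EPCAM, CLDN1, CLDN4 and GJA1, which encode proteins of cell contacts, and VIM, FN1, ZEB1 and SNAI2, which are used as marks of mesenchymal transition. They were taken by symbol from the count table, in which each symbol had 1 row, and make up 9 of 58278 genes counted. HCT116, a long-established line of human colorectal carcinoma cells, here carried luciferase and GFP and was injected under the skin of male NOD SCID mice, which lack functional lymphocytes but keep other host cells. Mice were given by gavage, daily for several weeks, either vehicle (Control), the CDK4 and CDK6 inhibitor Palbociclib, the glutaminase inhibitor Telaglenastat (spelled Telaglenestat in the sample labels) or both drugs (Combination). The residual tumors gave 3 Control, 5 Palbociclib, 4 Telaglenastat and 4 Combination libraries. The 12 cultures, 3 from each treatment, were started from excised tumors and grown without drug, and no record ties a culture to one of the sequenced tumors. All libraries come from 1 cell line, so they carry 1 genetic background, and p-values describe the spread between these tumors or cultures.

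Epithelial cells hold together through adherens junctions, tight junctions, desmosomes and gap junctions. E-cadherin (CDH1) binds its like on the neighboring cell at adherens junctions, EpCAM (EPCAM) is a surface protein of simple epithelia and of most carcinomas, claudins (CLDN1, CLDN4) form the strands of tight junctions and connexin 43 (GJA1) forms gap junction channels. In epithelial-mesenchymal transition, factors such as ZEB1 and Slug (SNAI2) bind E-box sequences and repress CDH1 and other epithelial genes, while the intermediate filament protein vimentin (VIM) and the matrix protein fibronectin (FN1) increase. GJA1, VIM, FN1 and SNAI2 are also active in fibroblasts and other stromal cells.

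Values are CPM, each gene's count relative to the total of its library, after scaling of library sizes within the 16 tumors or within the 12 cultures, and each library held 6273834 to 13815675 counted reads. Fold changes are from edgeR's quasi-likelihood test over all genes, given as log2 values with their standard error (SE), and adjusted p-values are Benjamini-Hochberg values over all genes tested, with a threshold of 0.05. Tumor libraries differed in how their counts depended on base composition. The slope of a gene's log2 deviation on GC content, per SD of GC, averaged 0.253 ± 0.00635 (SD, n = 3) in Control tumors and 0.284 ± 0.106 (n = 5) in Palbociclib tumors. It was -0.337 ± 0.0353 (n = 4) in Telaglenastat tumors and -0.208 ± 0.0549 (n = 4) in Combination tumors. Genes rich in G and C thus read lower in every tumor library given Telaglenastat, and values after removal of this trend and of a trend on gene length are called corrected. Because the trend went with Telaglenastat, a property of the libraries and a true change of GC-rich genes cannot be told apart. The correction may therefore also remove part of a response to the drug. Among the 9 genes CLDN4 had the highest GC content, 57.5%, and the others lay between 38.5% for ZEB1 and 48.6% for CDH1. Palbociclib tumor 2 stood apart from the other Palbociclib tumors, with a chi-square per degree of freedom of 13.8 to 19.5 over genes against 4.66 to 11 among the rest. The 3 Telaglenastat cultures differed from each other by 33.1 to 41.9, against 4.5 to 10.1 within the other culture groups.

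The libraries held the defining transcripts of a simple epithelium. Mean levels over all libraries were 797 CPM for KRT8, 650 CPM for KRT18 and 425 CPM for EPCAM. CDX2 averaged only 5.59 CPM, and VIL1 of the intestinal brush border averaged 2.05 CPM and was at 0 in every Telaglenastat tumor. The sum of 9 epithelial markers was 2840 to 3420 CPM in Control and 3090 to 4310 CPM in Palbociclib tumors. It was 1680 to 1850 CPM in Telaglenastat and 2430 to 2750 CPM in Combination tumors. Of the 9, 1 was higher and 6 lower with Telaglenastat against Control (22.6% and 28.5% of all genes). In Combination tumors 2 were higher and 4 lower (17.6% and 26.9% of all genes). After correction these counts were 0 and 4, and 4 and 1 (934 and 1262, and 1961 and 1967, of all 14848 genes tested). Markers of host stroma, which can be counted when mouse reads align to human genes, were also present in tumors. The sum of 8 fibroblast markers was 151 to 192 CPM in Control, 109 to 187 CPM in Palbociclib, 48 to 61.9 CPM in Telaglenastat and 95.4 to 142 CPM in Combination tumors, and 2.42 to 8.23 CPM in cultures. Most of it was COL1A1, COL1A2 and COL3A1, while DCN, LUM and THY1 were at or near 0. Of 6 leukocyte markers the sum was 10.9 to 24.3 CPM in Control and Palbociclib tumors and 1.96 to 9.3 CPM in Telaglenastat and Combination tumors. It was 0.26 to 4.43 CPM in cultures, a range that overlaps these last 2 groups. Of 5 endothelial markers the sum was at most 2.94 CPM, with CDH5 at 0 in every library. The 4 mural and muscle markers summed to 10.3 to 28.4 CPM in tumors and, overlapping, 5.55 to 13.3 CPM in cultures. Of the fibroblast and leukocyte markers with enough counts, 3 of 3 and 2 of 2 passed as lower in Telaglenastat tumors against Control. The counts were 1 of 3 and 1 of 2 in Combination tumors and none in Palbociclib tumors. Over all genes tested, 28.5%, 26.9% and 3.6% were lower in the same order. After correction, 2 of 3 and 1 of 2 were lower with Telaglenastat, and 0 of 3 and 1 of 2 in Combination tumors. Of all 14848 genes tested, 1262 and 1967 were then lower in these 2 groups. The log2 difference of COL1A1 went from -2.22 to -1.03 with Telaglenastat and from -0.95 to 0.11 in Combination tumors. The part of these markers in the values of GJA1, VIM, FN1 and SNAI2 was not tested. In bulk tumors, fewer cells of a type and less RNA per cell cannot be told apart.

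Per kilobase of exon, EPCAM was the most abundant of the 9 transcripts, with a mean of 178 CPM per kb over the 4 tumor groups. CDH1 followed with 28.7, CLDN4 with 12.5 and VIM with 9.37 CPM per kb, and the group means of CLDN4 (6.45 to 17.8) and VIM (5.83 to 15.9) overlapped. GJA1 at 2.76 and FN1 at 1.94 CPM per kb also had overlapping group means, since GJA1 ran from 0.659 to 6.44 CPM per kb. ZEB1 (0.802 CPM per kb) and SNAI2 (0.783 CPM per kb) could not be ordered either. CLDN1 came last with 0.0457 CPM per kb. In cultures the order began in the same way, with EPCAM at 157, CDH1 at 15.8 and CLDN4 at 6.85 CPM per kb, whereas GJA1 (0.11) and SNAI2 (0.0916) were then below ZEB1 (0.697).

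Members passed the threshold in every tumor comparison. Palbociclib tumors differed from Control tumors in 1 of 8 members tested, where 6.16% of all genes tested were called. Telaglenastat tumors differed in 3 of 8, below the 51.1% called over all genes, and Combination tumors in 4 of 8, near the 44.5% of all genes. Between treatments, Combination differed from Palbociclib in 3 of 8 members (47.6% of all genes) and from Telaglenastat in 4 of 8 (18.8% of all genes). CLDN1 had too few counts to be tested. A share near that of all genes says nothing particular of these members, so the account turns on which gene moved in which direction.

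**Figure D1:**
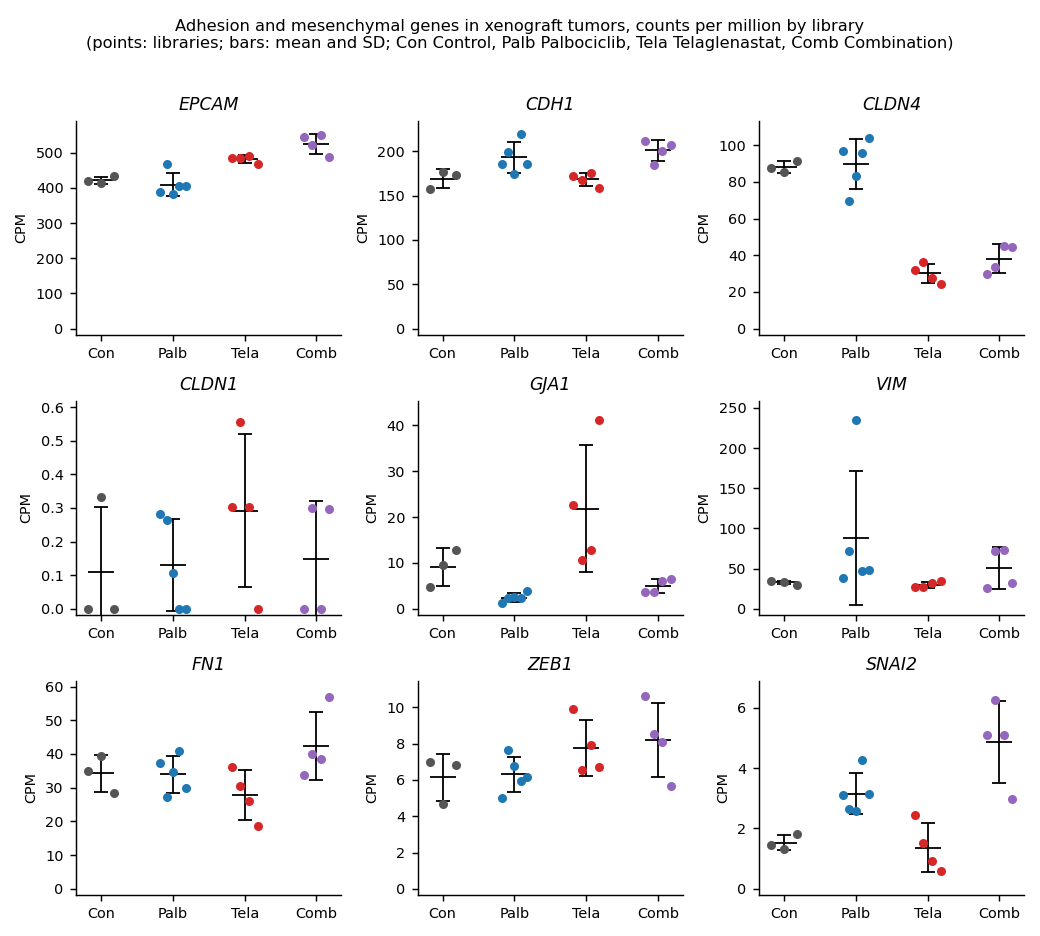
CPM of the 9 genes (y axes, from 0) in each tumor library (points) of the Control, Palbociclib, Telaglenastat and Combination groups (x axes), with mean and SD as bars. CLDN4 falls into a high pair of groups (69.5 to 104 CPM) and a low pair (24.4 to 45 CPM), GJA1 is lowest with Palbociclib, SNAI2 is highest in Combination tumors and VIM has 1 Palbociclib tumor at 235 CPM.

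E-cadherin, the core of adherens junctions, changed little. CDH1 (ENSG00000039068.18, GRCh38 chr16:68737225-68835548, plus strand) was at 157, 177 and 173 CPM in the 3 Control tumors and at 185, 200, 207 and 212 CPM in the Combination tumors. These groups did not overlap, and the rise of 0.25 (SE 0.079) on the log2 scale passed the test (edgeR adjusted p = 0.0137, 0.0134 after correction), although without Control tumor 1 it did not. Palbociclib tumors, at 174 to 220 CPM, overlapped both groups, with a log2 difference from Control of 0.19 (SE 0.075, edgeR adjusted p = 0.162). Telaglenastat tumors stayed at 158 to 175 CPM, inside the Control range, and Combination tumors were above all of them by 0.26 (SE 0.073, edgeR adjusted p = 0.0171), a call that was lost without Telaglenastat tumor 4 and in 1 fit of all 28 libraries (0.25, adjusted p = 0.218).

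EpCAM was modestly higher in tumors given Telaglenastat. EPCAM (ENSG00000119888.10, GRCh38 chr2:47345158-47387601, plus strand) was at 419, 414 and 433 CPM in Control tumors, at 485, 485, 492 and 467 CPM in Telaglenastat tumors and at 544, 521, 550 and 487 CPM in Combination tumors. Both groups given Telaglenastat lay above every Control tumor. Combination tumors exceeded Control tumors by 0.32 (SE 0.071, edgeR adjusted p = 0.00119) and Palbociclib tumors by 0.36 (SE 0.062, edgeR adjusted p = 8.99e-05), and the corrected differences were 0.18 (adjusted p = 0.0326) and 0.23 (adjusted p = 0.00406). The smaller rise in Telaglenastat tumors, 0.19 (SE 0.071, edgeR adjusted p = 0.0295), was 0.11 with an adjusted p of 0.246 after correction, and it was lost in 6 of 7 fits that left out 1 library. Palbociclib tumors ranged from 382 to 467 CPM around the Control values, and their highest value was that of Palbociclib tumor 2.

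Claudin 4 divided the tumors by Telaglenastat without overlap. CLDN4 (ENSG00000189143.9, GRCh38 chr7:73799542-73832693, plus strand) was at 87.5, 85.2 and 91.5 CPM in Control tumors and at 96.8, 69.5, 83.4, 96 and 104 CPM in Palbociclib tumors. It was at 32.1, 36.1, 27.8 and 24.4 CPM in Telaglenastat tumors and at 29.7, 33.4, 45 and 44.8 CPM in Combination tumors. Every tumor given Telaglenastat, alone or with Palbociclib, was thus below every tumor that was not. How many of all genes did the same was not counted, and 51.1% of all genes were called for Telaglenastat against Control. CLDN4 fell by 1.55 (SE 0.15, edgeR adjusted p = 8.60e-08) on the log2 scale with Telaglenastat and by 1.20 (SE 0.15, edgeR adjusted p = 2.02e-06) in Combination tumors against Control. Combination against Palbociclib tumors gave -1.23 (SE 0.13, edgeR adjusted p = 4.01e-07), while Palbociclib against Control gave 0.031 (SE 0.13, edgeR adjusted p = 0.95). Combination and Telaglenastat tumors overlapped and differed by 0.35 (SE 0.15, edgeR adjusted p = 0.112), or 0.46 and past the threshold without Combination tumor 1 (edgeR adjusted p = 0.034). The GC content trend runs the same way for a gene as GC-rich as CLDN4, and the corrected differences were -0.69 (adjusted p = 0.000199) for Telaglenastat, -0.47 (adjusted p = 0.00334) for Combination and -0.49 (adjusted p = 0.00163) for Combination against Palbociclib. All of these calls were kept, at a smaller size.

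Claudin 1 was close to silent. CLDN1 (ENSG00000163347.5, GRCh38 chr3:190305701-190322475, minus strand) had 0 to 4 counts in a tumor library and 0 to 6 in a culture library. Its highest value, 0.739 CPM in Combination culture 1, rests on 6 counts. Group means lay between 0.046 and 0.291 CPM, and 3 counts over a group correspond to 0.0701 to 0.127 CPM, so no fold change is given and no difference was detectable at this depth.

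Connexin 43 was lower with Palbociclib and, before correction, higher with Telaglenastat. GJA1 (ENSG00000152661.7, GRCh38 chr6:121435577-121449727, plus strand) was at 4.83, 9.63 and 12.9 CPM in Control tumors and at 1.23, 2.37, 2.47, 2.24 and 3.78 CPM in Palbociclib tumors. All 5 Palbociclib tumors were below the lowest Control tumor, and GJA1 fell by 1.94 (SE 0.42, edgeR adjusted p = 0.00602) on the log2 scale, or -1.89 (adjusted p = 0.00693) after correction. That call was lost without Control tumor 3 and in 1 fit of all 28 libraries (adjusted p = 0.0561). In Telaglenastat tumors GJA1 was at 22.6, 10.7, 12.8 and 41.2 CPM, a group whose lower values overlapped the Control tumors. The rise of 1.26 (SE 0.40, edgeR adjusted p = 0.0126) was 0.94 with an adjusted p of 0.127 after correction, and it was lost without Control tumor 1 or without Telaglenastat tumor 4, which holds the highest value. Combination tumors, at 3.65, 3.58, 5.96 and 6.55 CPM, overlapped both the Control and the Palbociclib tumors. They were 2.14 (SE 0.39, edgeR adjusted p = 0.000678) below Telaglenastat tumors with no overlap, and this difference passed in each fit that left out 1 library and after correction (-2.04). Against Control the difference was -0.87 (SE 0.42, edgeR adjusted p = 0.101), but it passed without Control tumor 1 (-1.18, adjusted p = 0.0381) and with replicate number as a block, without (-1.10, adjusted p = 0.0246) and with (-1.34, adjusted p = 0.0137) the correction. Against Palbociclib tumors it was 1.07 (SE 0.42, edgeR adjusted p = 0.0423), a call lost in 6 of 9 fits with 1 library left out and after correction (0.80, adjusted p = 0.245). The processed pseudogene GJA1P1 held 2 counts over all tumors.

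The reference promoter windows of CLDN4 and GJA1, a tight junction and a gap junction gene whose tumor values are described above, are printed to show the sequence around their starts. Each window runs from 250 bases before to 50 bases after a RefSeq start on GRCh38.p14, plus strand, 5′ to 3′, at chr7:73830746-73831045 for CLDN4 (59% GC) and chr6:121435396-121435695 for GJA1 (47% GC). Capitals mark the letters TGANTCA on either strand, a loose form of the core that AP-1 factors bind, since N admits any base.
CLDN4: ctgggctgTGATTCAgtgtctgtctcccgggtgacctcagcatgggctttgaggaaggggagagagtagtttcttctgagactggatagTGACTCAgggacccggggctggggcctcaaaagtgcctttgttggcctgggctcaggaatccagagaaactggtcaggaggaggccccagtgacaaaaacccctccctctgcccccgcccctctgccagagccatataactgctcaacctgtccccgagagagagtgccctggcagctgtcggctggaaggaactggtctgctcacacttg
GJA1: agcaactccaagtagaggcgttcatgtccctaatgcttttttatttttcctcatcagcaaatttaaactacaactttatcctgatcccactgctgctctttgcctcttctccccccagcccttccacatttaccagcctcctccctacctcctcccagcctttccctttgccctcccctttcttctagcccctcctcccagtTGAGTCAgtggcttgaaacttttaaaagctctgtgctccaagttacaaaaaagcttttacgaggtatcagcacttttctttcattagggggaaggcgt
These letters occur at -242 and -161 in the CLDN4 window and at -48 in the GJA1 window, counted from the start, and 7.71% of all 35116 promoter windows hold them. Neither window holds the E-box CAGGTG or its reverse complement CACCTG, which 20.6% of all windows hold. The 12 member windows searched belong to 6 members, CLDN1, CLDN4, GJA1, VIM, FN1 and ZEB1. No window of CDH1, EPCAM or SNAI2 was searched, so nothing is said of E-boxes in their promoters. Among the 12 windows, only 2 windows of ZEB1 had such an E-box. There was 1 match at -57 in chr10:31318167-31318466 and matches at -242, -85 and 34 in chr10:31318966-31319265. The E-box was the motif chosen first, and the AP-1 letters were chosen, among 5 motifs looked for, after the values had been seen. A match describes the letters only.

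Vimentin did not pass in any tumor comparison with all libraries included and had 1 tumor far from the rest. VIM (ENSG00000026025.15, GRCh38 chr10:17228259-17237593, plus strand) was at 34.6, 33.5 and 29.9 CPM in Control tumors and at 37.7, 72.3, 235, 47.4 and 48.7 CPM in Palbociclib tumors. All 5 Palbociclib tumors were above the Control tumors, but Palbociclib tumor 3 held a value over 3 times that of the next. The log2 difference of 1.44 (SE 0.48) did not pass (edgeR adjusted p = 0.0838), and without Palbociclib tumor 3 it was 0.65 (SE 0.28, edgeR adjusted p = 0.229). Without Palbociclib tumor 1 it was 1.64 and passed (edgeR adjusted p = 0.0348), as did Combination against Palbociclib tumors (adjusted p = 0.0495). The fibroblast marker sum of Palbociclib tumor 3 was 166 CPM, inside the range of the Control tumors. Telaglenastat tumors, at 26.6 to 33.9 CPM, overlapped Control (-0.14, SE 0.51). Combination tumors split into a pair at 72.3 and 73.6 CPM and a pair at 25.3 and 31.7 CPM, for a difference from Control of 0.64 (SE 0.50, edgeR adjusted p = 0.321). The antisense gene VIM-AS1 overlaps VIM and held 315 counts over all tumors, and whether counting used strand is not given in the sources used here.

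Fibronectin passed in 1 comparison, that of Combination with Telaglenastat tumors. FN1 (ENSG00000115414.18, GRCh38 chr2:215360440-215436172, minus strand) was at 34.9, 39.3 and 28.5 CPM in Control tumors, at 27.3 to 40.9 CPM in Palbociclib tumors, at 36.2, 30.5, 26 and 18.6 CPM in Telaglenastat tumors and at 33.8, 40, 38.6 and 56.8 CPM in Combination tumors. Combination exceeded Telaglenastat tumors by 0.61 (SE 0.18, edgeR adjusted p = 0.0246), with 1 Telaglenastat tumor inside the Combination range, and the call was lost without Telaglenastat tumor 3, Telaglenastat tumor 4 or Combination tumor 4. After correction this difference was 0.77 (adjusted p = 0.00646). Against Control, FN1 gave -0.30 (SE 0.20) with Telaglenastat and 0.30 (SE 0.19) in Combination tumors, neither of which passed (edgeR adjusted p = 0.207 and 0.215), and the Telaglenastat difference was -0.61 (adjusted p = 0.0418) after correction. The fibroblast marker sum was also lower in Telaglenastat (48 to 61.9 CPM) than in Combination tumors (95.4 to 142 CPM), and its part in FN1 was not tested.

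Of the 2 transcription factors, SNAI2 passed in both comparisons of Combination tumors with tumors not given Palbociclib, and ZEB1 in none with all libraries included. SNAI2 (ENSG00000019549.9, on chromosome 8, minus strand) encodes the E-box repressor Slug and was at 1.46, 1.33 and 1.81 CPM in Control tumors and at 3.12, 2.63, 2.58, 4.26 and 3.15 CPM in Palbociclib tumors. In Combination tumors it was at 5.08, 6.27, 5.11 and 2.98 CPM, and in Telaglenastat tumors at 2.43, 1.53, 0.911 and 0.595 CPM. On this scaling within tumors, every tumor given Palbociclib, alone or combined, was above every tumor that was not. The number of genes that split the tumors in this way was not counted. Combination tumors exceeded Control by 1.66 (SE 0.40, edgeR adjusted p = 0.00227) and Telaglenastat tumors by 1.82 (SE 0.38, edgeR adjusted p = 0.0021), and both calls were kept after correction (1.44 and 1.89) and whichever library was left out. Palbociclib alone gave 1.04 (SE 0.39) against Control, which did not pass over all genes (edgeR adjusted p = 0.135, unadjusted p = 0.015). The levels rest on few reads, 12 to 14 per Control, 4 to 16 per Telaglenastat library and 20 to 42 per library given Palbociclib. The nearest values across the split were 2.43 CPM (16 counts) in Telaglenastat tumor 1 and 2.58 CPM (24 counts) in Palbociclib tumor 3. At this depth the split is narrow there. On 1 scaling over all 28 libraries the same 2 tumors were at 2.41 and 2.4 CPM, so the groups overlapped. ZEB1 (ENSG00000148516.21, GRCh38 chr10:31318495-31529814, plus strand) was at 4.65 to 6.96 CPM in Control, 5.01 to 7.62 CPM in Palbociclib, 6.55 to 9.88 CPM in Telaglenastat and 5.65 to 10.6 CPM in Combination tumors. Its largest difference from Control, 0.42 (SE 0.24) in Combination tumors, had an edgeR adjusted p of 0.168. Combination against Palbociclib tumors gave 0.39 (SE 0.21, edgeR adjusted p = 0.137), or 0.53 and past the threshold without Combination tumor 4 (edgeR adjusted p = 0.0467). ZEB1-AS1, an antisense gene that overlaps ZEB1, held 597 counts over all tumors.

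**Figure D2:**
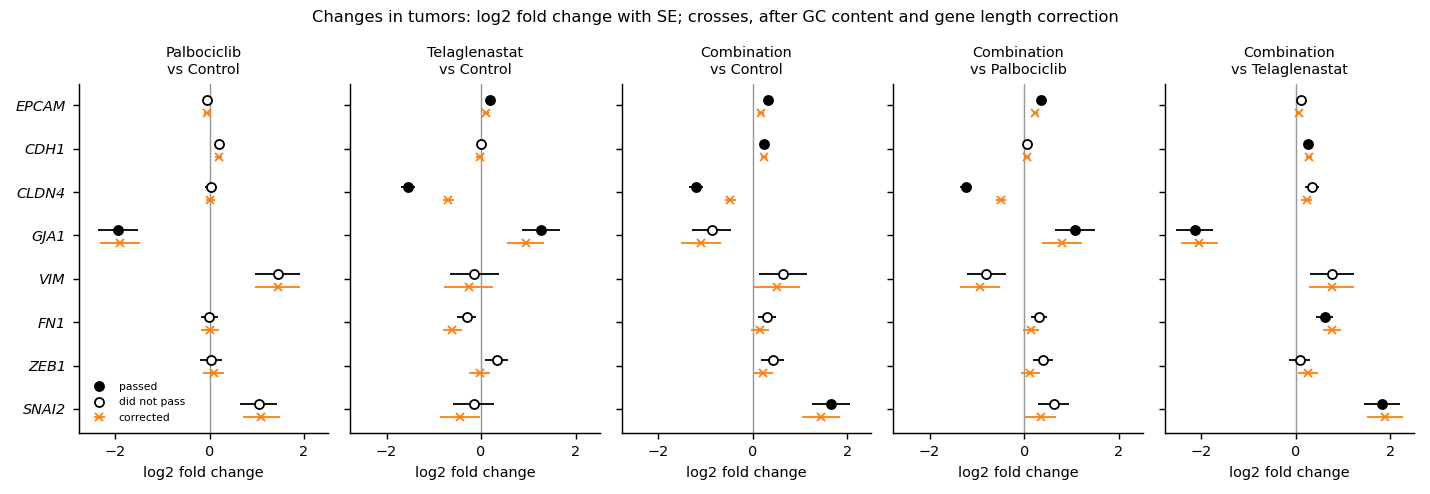
Log2 fold change (x axis) with SE of the 8 tested genes (rows) in the 5 tumor comparisons (panels); filled circles passed the threshold, open circles did not, and crosses are corrected values. The correction moves CLDN4 from -1.55 to -0.69 with Telaglenastat, while SNAI2 in Combination against Control stays at 1.66 and 1.44.

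In uncorrected CPM on the scaling within tumors, CLDN4 followed the presence of Telaglenastat and SNAI2 that of Palbociclib in every tumor library. On 1 scaling over all 28 libraries the SNAI2 groups overlapped. The CLDN4 difference was partly removed by the correction, and the SNAI2 difference was short of the threshold for Palbociclib alone. How many of all genes tested split the tumors in these ways was not counted. The comparisons with Control share the same 3 Control tumors, so their values were set side by side and not compared as independent results. For each member that passed in a tumor comparison, the genes whose log2 CPM ran most closely with it over the 16 tumors, among 9888 genes, were listed as a description. For CLDN4 they were PTOV1 and EMC10, both with Pearson's r = 0.989, and for EPCAM ARPC5 (r = 0.961) and SH3GLB1 (r = 0.958). For GJA1 they were LRRC8C (r = 0.931) and ARL3 (r = 0.913), for SNAI2 ALDH1A3 (r = 0.928) and MXRA7 (r = 0.898), for CDH1 MAML2 (r = 0.884) and ETV6 (r = 0.883) and for FN1 CAPN2 (r = 0.791) and PLEK2 (r = 0.786). All points share library depth, treatment and the base composition trend, so these r values describe the 16 libraries only.

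Other genes of the same systems were read from lists of junction, epithelial identity, connexin, matrix and integrin, transcription factor and TGF-beta genes. Over all genes tested, 2.55% were higher and 3.6% lower in Palbociclib tumors against Control. The shares were 22.6% and 28.5% in Telaglenastat tumors and 17.6% and 26.9% in Combination tumors. Counts before correction stand beside these shares. After correction 571 of the 14848 genes tested were higher and 616 lower with Palbociclib. These counts were 934 and 1262 with Telaglenastat and 1961 and 1967 in Combination tumors. Of 27 tested junction genes other than the members, 7 were higher and 10 lower in Telaglenastat tumors (median log2 fold change -0.061, against 0.027 over all genes). JUP, the plakoglobin gene of adherens junctions and desmosomes, fell by 2.13 (SE 0.14), from 209 to 47.6 CPM, and PKP3, a desmosomal plakophilin gene, fell by 2.20 (SE 0.25), while CTNND1, the p120 catenin gene, rose by 0.32 (SE 0.082) and CLDN12 by 0.37 (SE 0.085). The correction left 1 higher and 5 lower, with JUP at -0.91 and PKP3 at -0.55 still past the threshold and CLDN12 (-0.0085) and CTNND1 (0.17) not. In Combination tumors 3 were higher and 11 lower (3 and 6 after correction), among them JUP (-1.84), PKP3 (-1.85) and, higher, OCLN, the occludin gene of tight junctions (0.52, SE 0.081, edgeR adjusted p = 2.77e-05). In Palbociclib tumors only DSC2, a desmosomal cadherin gene, passed, lower by -0.52 (SE 0.11, edgeR adjusted p = 0.00576).

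Of 19 tested epithelial identity genes, 1 was higher and 13 lower with Telaglenastat (median -1.19), with KRT19, a keratin gene of simple epithelia, at 113 against 484 CPM (-2.09, SE 0.16) and ST14, the matriptase gene, at 22.9 against 85.6 CPM (-1.90, SE 0.16). ESRP1, an epithelial splicing regulator, was the 1 that rose (0.24, SE 0.076). After correction 1 was higher and 8 lower (median -0.36), KRT19 was at -0.79, ST14 at -0.57, and ESRP1 at -0.036 no longer passed. Combination tumors had 1 higher and 10 lower (3 and 3 after correction), with ST14 at -1.55 and LLGL2, a cell polarity gene, at -1.44, of which LLGL2 did not pass after correction (-0.31). In Palbociclib tumors 1 of 19 passed, the keratin gene KRT18, which rose by 0.58 (SE 0.10) to 1250 CPM, and 3 were higher after correction.

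Connexins other than GJA1 gave few calls. Of 6 tested, 1 was higher and 1 lower in Palbociclib tumors, and GJC1 fell by 0.49 (SE 0.10). With Telaglenastat, 0 were higher and 3 lower, GJB5 (-1.77, SE 0.29) and GJB2 (-1.16, SE 0.33) among them, and 2 of the 3 were called after correction. In Combination tumors 0 were higher and 3 lower, and after correction 1 was higher and 1 lower, with GJB5 (-0.74 before and -0.12 after) no longer past the threshold.

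Matrix and integrin genes, the partners of FN1, rose in Palbociclib tumors where they moved at all. Of 21 tested, 5 were higher and 0 lower (median 0.22), both before and after correction. TGFBI, a matrix protein gene induced by TGF-beta, rose by 0.95 (SE 0.23) from 9.31 to 17.9 CPM. It was also higher in Combination tumors, by 1.45 (SE 0.24), where 8 were higher and 5 lower (12 and 3 after correction), with PLAUR (-1.10) and the integrin gene ITGA5 (-0.94) lower. Telaglenastat tumors had 3 higher and 12 lower (2 and 5 after correction). SPARC, a matrix protein gene also made by fibroblasts, was 1.92 lower there at 20.9 against 78.8 CPM, PLAUR, the urokinase receptor gene, fell by 1.82, and ITGAV (0.47) and CD44 (0.38) rose before but not after correction. The fibroblast sums given above were lower in the same Telaglenastat tumors, and their part was not tested.

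Of 10 tested transcription factors of epithelial-mesenchymal transition other than the members, 1 was higher and 0 lower with Palbociclib, and 2 and 2 with Telaglenastat and in Combination tumors (3 and 1, and 3 and 0, after correction). HMGA2, a chromatin factor gene, rose in all 3 treated groups against Control, by 0.27 (SE 0.076), 0.66 (SE 0.080) and 0.54 (SE 0.079) for Palbociclib, Telaglenastat and Combination, and did so after correction. FOXC1 rose by 0.55 with Telaglenastat and 0.32 in Combination tumors (1.30 and 0.96 after correction). SNAI1, which encodes Snail, was lower by -1.64 (SE 0.43) and -1.52 (SE 0.43) but did not pass after correction (-0.69 and -0.77). TCF3 reversed, from -0.51 and -0.55 to 0.68 and 0.48 after correction, each past the threshold, so no direction is given for it. Of 16 TGF-beta pathway genes, 2 were higher and 0 lower with Palbociclib (TGFBR2 by 0.37, SMAD3 by 0.32), 4 and 3 with Telaglenastat and 6 and 3 in Combination tumors (4 and 0, 3 and 1, and 6 and 1 after correction). The ligand gene TGFB2 rose by 1.35 (SE 0.32) with Telaglenastat and by 0.93 (SE 0.32) in Combination tumors, where it did not pass after correction (0.73), and TGFB1 fell by 1.63 and 0.97 but was at -0.23 and 0.17 after correction.

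**Figure D3:**
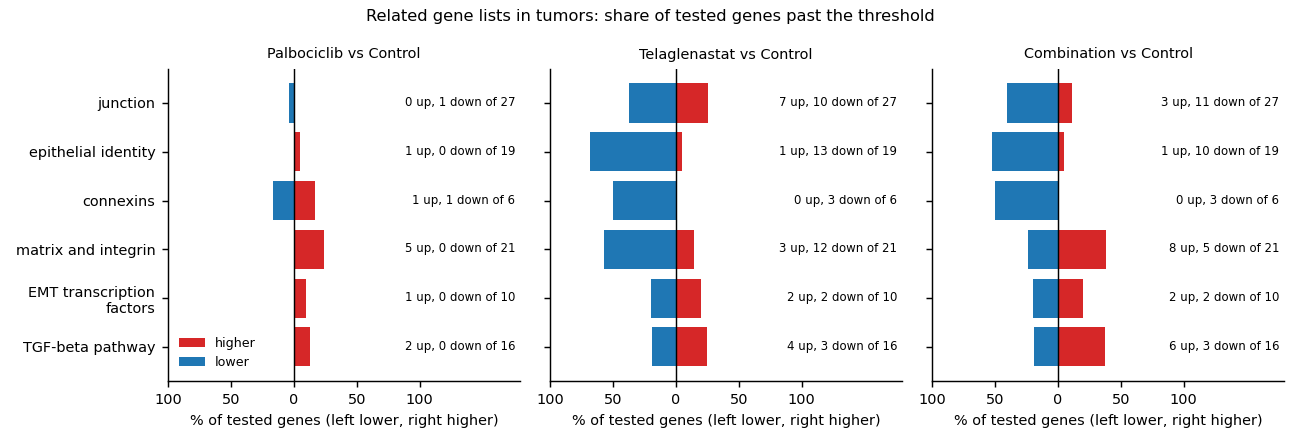
Percent of tested genes of 6 related lists (rows) that passed the threshold as higher (right of 0) or lower (left of 0) in each treated tumor group against Control (panels), without the correction. Epithelial identity genes have 13 of 19 lower with Telaglenastat and matrix and integrin genes 5 of 21 higher with Palbociclib.

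In the explanted cultures none of the 6 members tested passed in any of the 5 comparisons of treatments, and few genes did at all. The share called over all 13985 genes tested was 0% for Palbociclib, Telaglenastat, Combination against Palbociclib and Combination against Telaglenastat, and 0.00715% for Combination against Control. At an unadjusted p under 0.05 edgeR gave 592 genes for Palbociclib, 898 for Telaglenastat and 895 for Combination against Control, 277 for Combination against Palbociclib and 1969 for Combination against Telaglenastat. DESeq2 called 0, 13, 2, 3 and 99 genes in the same order. CLDN1, GJA1 and SNAI2 had too few counts in cultures to be tested.

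**Figure D4:**
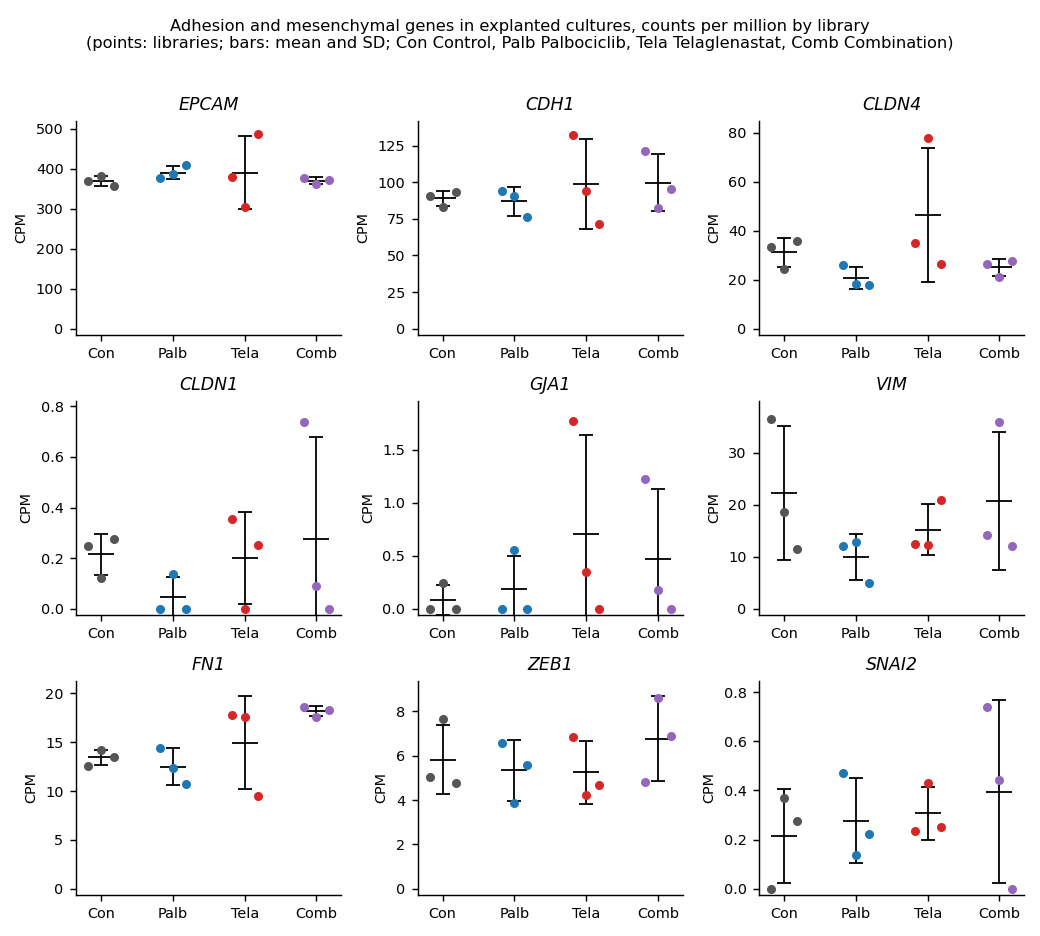
CPM of the 9 genes (y axes) in each culture library (points) by the treatment of the tumor of origin (x axes), with mean and SD as bars. The groups overlap for most genes, Telaglenastat culture 2 stands above the rest for CLDN4 at 77.8 CPM, and GJA1, SNAI2 and CLDN1 stay below 2 CPM.

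CLDN4 did not keep its tumor pattern in culture. It was at 33.4, 24.4 and 35.7 CPM in Control cultures, at 35, 77.8 and 26.6 CPM in Telaglenastat cultures, at 26, 18.2 and 17.8 CPM in Palbociclib cultures and at 26.6, 21 and 27.6 CPM in Combination cultures. Telaglenastat cultures differed from Control by 0.58 (SE 0.32, edgeR adjusted p = 0.794), and by -0.0096 without Telaglenastat culture 2. The slope on GC content also varied in cultures. It averaged 0.122 ± 0.257 (SD, n = 3) in Telaglenastat cultures, from -0.034 to 0.418, and 0.0853 ± 0.135 (n = 3) in Control cultures. It was -0.115 ± 0.0153 (n = 3) in Palbociclib and -0.0923 ± 0.034 (n = 3) in Combination cultures. The Telaglenastat effect in cultures minus that in tumors was 2.05 (SE 0.35, edgeR adjusted p = 0.000205) in 1 fit of all 28 libraries, where 34.1% of all genes were called. It was 1.16 (adjusted p = 0.00135) after correction and passed in each of 13 fits with 1 library left out. CLDN4 was the only member called in such a test of the effect between places with all libraries included, and without Telaglenastat culture 3 EPCAM also passed for Telaglenastat (-0.40, edgeR adjusted p = 0.00972). No member passed for Palbociclib (1.39% of all genes called) or for Combination (2.91%), and VIM came nearest for Palbociclib, with -2.63 (SE 0.77, edgeR adjusted p = 0.0888), or -1.85 (SE 0.59, adjusted p = 0.147) without Palbociclib tumor 3.

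The other tested members overlapped between cultures, with 1 exception. FN1 was at 12.6, 14.2 and 13.5 CPM in Control cultures and at 18.6, 17.6 and 18.3 CPM in Combination cultures, all 3 above the Control and above the Palbociclib cultures (10.7 to 14.4 CPM). The log2 differences were 0.43 (SE 0.23, edgeR adjusted p = 0.681, unadjusted p = 0.0764) and 0.54 (SE 0.23, adjusted p = 1, unadjusted p = 0.0321), so neither passed. VIM ran from 4.9 CPM in Palbociclib culture 3 to 36.5 CPM in Control culture 1, and its Palbociclib difference of -1.18 (SE 0.50) had an unadjusted p of 0.0329 and an edgeR adjusted p of 0.795. CDH1 (71.2 to 132 CPM), EPCAM (305 to 486 CPM) and ZEB1 (3.86 to 8.61 CPM) had both extremes of CDH1 and EPCAM inside the Telaglenastat cultures. GJA1 counts were 0, 2 and 0 in Control, 0, 4 and 0 in Palbociclib, 15, 4 and 0 in Telaglenastat and 10, 2 and 0 in Combination cultures. SNAI2 counts were 0 to 6 in every culture. At this depth treatment differences in either gene were not detectable.

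Control cultures and Control tumors were set side by side on 1 scaling over all 28 libraries. Of 8 members tested 5 were lower in culture and 0 higher, where 45.9% of all genes were called (22.8% higher and 23.1% lower). CDH1 was at 93.7, 86.1 and 96.9 CPM in cultures against 146, 167 and 161 CPM in tumors (-0.78, SE 0.15, edgeR adjusted p = 0.000101). CLDN4 was at 34.5, 25.3 and 37.2 CPM against 81.5, 80.3 and 85.4 CPM (-1.35, SE 0.26, edgeR adjusted p = 9.61e-05), or -0.79 after correction. FN1 was at 13, 14.7 and 14.1 CPM against 32.6, 37 and 26.6 CPM (-1.20, SE 0.23, edgeR adjusted p = 8.62e-05). For all 3 genes the highest culture was below the lowest tumor. EPCAM (371 to 397 CPM in cultures, 390 to 404 CPM in tumors), VIM and ZEB1 overlapped and did not pass, although EPCAM differed by -0.25 (adjusted p = 0.00952) after correction.

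GJA1 and SNAI2 were nearly lost from culture. GJA1 had 230 counts over the 3 Control tumors and 2 over the 3 Control cultures, a ratio of 95.1 on the common scale with a 95% exact interval of 26 to 790, which covers counting error only (edgeR adjusted p = 2.17e-05). In the treated pairs of groups the ratio of tumors to cultures was 15 (5.68 to 56.2) for Palbociclib, 30.8 (19.5 to 51.5) for Telaglenastat and 10.9 (6.06 to 21.7) for Combination. SNAI2 had 39 counts in Control tumors and 5 in Control cultures, a ratio of 6.45 (2.54 to 21, edgeR adjusted p = 0.00447). The ratios were 10.3 (5.1 to 24.4), 4.09 (1.94 to 9.65) and 11.7 (6.31 to 24) for Palbociclib, Telaglenastat and Combination. Fibroblast markers summed to 151 to 192 CPM in Control tumors and 4.22 to 5.34 CPM in Control cultures. Host cells, growth conditions and the choice of tumors for culture differ between tumors and cultures and cannot be told apart, and in the treated groups the tumors also had drug and the cultures none.

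**Figure D5:**
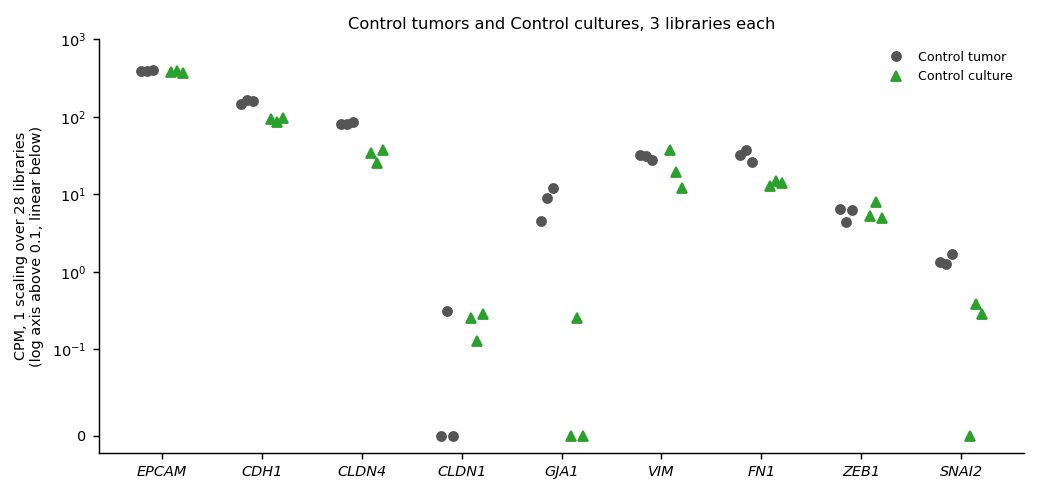
CPM on 1 scaling over 28 libraries (y axis, logarithmic above 0.1 and linear below) of the 9 genes (x axis) in the 3 Control tumors (circles) and 3 Control cultures (triangles). GJA1 goes from 4.5 to 12 CPM in tumors to at most 0.256 CPM in cultures, SNAI2 from at least 1.25 CPM to at most 0.384 CPM, and EPCAM overlaps.

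Among related genes, Control cultures had 4 junction genes higher and 14 lower of 27 tested, 0 epithelial identity genes higher and 13 lower of 20, and 3 matrix and integrin genes higher and 15 lower of 22. Connexins other than GJA1 had 1 higher and 4 lower of 6. Transcription factors had 1 higher and 4 lower of 10, and TGF-beta genes 1 and 7 of 16. For all 6 lists the corrected counts, 3 and 15, 1 and 13, 3 and 15, 1 and 5, 0 and 4, and 3 and 7 in the same order, were also mostly lower. Over all 15466 genes tested, 3365 were higher and 2882 lower in Control cultures after correction. In Combination against Control cultures 0 genes of any of the 6 lists passed.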

How the data were processed

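RNA-seq libraries of 16 tumors and 12 cultures were used, 28 in all, with groups and replicate numbers from the labels. The authors prepared poly(A) libraries, obtained reads with CASAVA 1.8, aligned them to the Ensembl genome (hg38 in the submitters' notes) with STAR and deposited whole-number counts per gene, unnormalized. The annotation release, and whether counting used strand, are not given in the sources used here, nor is a separation of mouse from human reads.

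Gene IDs were matched to GENCODE 29 on GRCh38 (57940 of 58278) for coordinates, exon length, GC content and overlaps. The positions of promoter windows come from RefSeq. A fit with edgeR 4.0.16 (R 4.3.3) was made over tumors (14848 genes), another over cultures (13985) and 1 over all libraries (15466) for tumors against cultures. Each fit used filterByExpr with a minimum count of 10, TMM, group means, the quasi-likelihood test and Benjamini-Hochberg adjustment. The SE of an edgeR value was derived from the test, as the absolute log2 fold change divided by the square root of its F statistic. The correction gave each library offsets from a robust spline trend (MASS 7.3.60.0.1, 4 degrees of freedom each) on GC content and transcript length. Log2 CPM used a prior count of 2. Steps were tested on simulated data. All 9 members were named, with, from each list and tumor comparison with Control, up to 2 genes higher and 2 lower of largest change whose mean log2 CPM was 1 or more, and the 2 most similar genes per called member among genes whose mean log2 CPM was 3 or more. Some genes that this rule names are not reported here. Members, lists and rules were chosen with earlier results of these data known. Alternatives were DESeq2 1.42.0, its size factors, no filter, the replicate block, the correction, the compared groups only, each library left out and, chosen after seeing the data, 1 fit of all 28 libraries.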

Additional observations from a re-analysis of the deposited data

Results flagged for a closer look

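EPCAM and VIM each had 1 tumor far from the rest of its group, by a gap relative to the group's range that chance exceeds in about 1 in 20 groups, and 27 pairs of a member and a group of 4 or 5 tumors were looked at. EPCAM in Palbociclib tumor 2 was at 467 CPM, against 382 to 405 CPM in the other 4 Palbociclib tumors. VIM in Palbociclib tumor 3 was at 235 CPM, against 37.7 to 72.3 CPM in the other 4. The effect of Telaglenastat on CLDN4 differed between cultures and tumors by 2.05 on the log2 scale (SE 0.35, edgeR adjusted p = 0.000205, culture effect minus tumor effect), the only such difference among the 8 members tested with all libraries included.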

How the results depend on the processing

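Over 21 calls of a member in a comparison, none changed sign under any alternative, and 72 uncalled values did. Without a filter on low counts, the number of members called was 2 for Palbociclib against Control tumors, 7 for Combination against Control, 5 for Combination against Palbociclib, 1 each for Palbociclib against Control, Combination against Palbociclib and Combination against Telaglenastat cultures, 1 for the difference of the Palbociclib effect between places and 2 for that of the Combination effect. With 1 fit of all 28 libraries it was 0 for Palbociclib against Control tumors, with DESeq2 1 for the difference of the Palbociclib effect, and with the correction and the replicate block together 1 (CLDN4) for Telaglenastat against Control tumors. The cause was not tested. Leaving out 1 library gave 0 to 2 members for Palbociclib against Control tumors (main 1), 1 to 2 for Telaglenastat (main 3), 4 for Combination (main 4), 2 to 3 for Combination against Palbociclib (main 3), 2 to 5 for Combination against Telaglenastat (main 4), 5 for Control cultures against tumors, 1 to 2 for the Telaglenastat difference and 0 for the other comparisons. The replicate numbers do not pair libraries, since the labels name no shared animal or day and same-numbered libraries correlated between -0.423 and 0.14. With the replicate block, 5 members were called for Combination against Control tumors (GJA1 added, -1.10) and no other call changed. Over all genes the correction changed calls (higher and lower) from 3352 and 4238 to 934 and 1262 for Telaglenastat, from 2614 and 3998 to 1961 and 1967 for Combination and from 2988 and 4076 to 1052 and 1217 for Combination against Palbociclib tumors. Depth limits SNAI2, GJA1 and CLDN1 in cultures.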
